A study of Mus musculus with 6 samples.

Results

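The 10 genes described here are 8 genes of the Notch signalling pathway (the receptors Notch1, Notch2 and Notch3, the ligands Dll1, Dll3 and Jag1, and the target genes Hes1 and Hes5) and the Deltex genes Dtx1 and Dtx4. They were chosen by name, as every array probe outside the manufacturer's controls that carries one of these 10 gene names, out of 27670 gene names in all. The array holds 16 such probes in 34 spots, of which 13 probes, at least 1 for each gene, were well above background on all 3 arrays of a group and were tested. Dtx4 was included as a gene of upper-layer cortical neurons and Dtx1 because it lies near Cux2 on mouse chromosome 5.

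The study compared cerebral cortex of male mice with and without Cux2, a transcription factor with CUT domains and a homeodomain that is made in upper cortical layers. The 3 knock-out samples (53, 48 and 54) have the genotype label Cux2-/-. The 3 comparison samples (15, 62 and 16) carry wild type in the title but Cux2+/- as the genotype. The labels leave this conflict unsettled, so they are called controls. The sources used here do not give the design of the Cux2 allele or the age of the mice. Nor do the labels say that the samples came from separate animals. A p-value here therefore reflects only how far these 6 samples spread, which may be technical.

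RNA of every sample went to 1 Agilent array with a single dye. Between 58.5% and 72.7% of probes were well above background, and log2 signals correlated across probes, which are not independent replicates, at 0.991 to 0.994 within groups and 0.988 to 0.991 between them. The arrays lie on 2 slides, with control 15 and knock-outs 48 and 54 on slide 1 and controls 62 and 16 and knock-out 53 on slide 2. All 10 fixed markers of cortical neurons were above background on all 6 arrays, and their mean deviation from each gene's average lay between -0.045 and 0.031 in controls and between 0.0098 and 0.032 in knock-outs. Cux2 differed by -0.12 ± 0.099 (log2, SE) on its brighter probe and 0.079 ± 0.15 on the other (limma adjusted p = 0.838 and 0.947). Since the sources used here do not say which part of the gene was altered, these probes do not check the labels.

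Notch receptors are membrane proteins that are cut when a ligand of the Delta or Jagged type on a neighbouring cell binds them. The freed intracellular domain enters the nucleus, joins the DNA-binding protein Rbpj and turns on target genes, above all those of the Hes and Hey families, which repress proneural factors. In the developing cortex the pathway keeps radial glia from becoming neurons, and in the adult brain it is known from astrocytes, vessel cells, stem cells and neurons. Deltex proteins are ubiquitin ligases, the best known of which bind the intracellular domain of Notch.

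The 250 bases before the start site of a target gene and of the Deltex gene near Cux2 are shown because they differ in the core letters bound by Rbpj, GTGGGAA, or TTCCCAC on the opposite strand. RefSeq start sites on the build GRCm38.p6 gave windows for 8 of the 10 genes, and Hes1 and Dtx4 have none. The Hes5 window lies on the plus strand at chr4:154960673-154960922 and the Dtx1 window on the minus strand at chr5:120711670-120711919. Capitals mark the matches.
Hes5: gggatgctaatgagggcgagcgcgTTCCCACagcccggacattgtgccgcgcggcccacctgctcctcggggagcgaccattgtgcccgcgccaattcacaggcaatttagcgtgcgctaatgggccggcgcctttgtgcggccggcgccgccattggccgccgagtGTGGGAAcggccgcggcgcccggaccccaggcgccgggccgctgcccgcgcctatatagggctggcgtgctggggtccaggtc
Dtx1: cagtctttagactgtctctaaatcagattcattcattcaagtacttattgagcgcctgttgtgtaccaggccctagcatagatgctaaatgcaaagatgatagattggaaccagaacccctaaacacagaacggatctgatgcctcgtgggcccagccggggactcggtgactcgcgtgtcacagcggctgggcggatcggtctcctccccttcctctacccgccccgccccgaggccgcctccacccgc
Hes5 held 2 matches, 1 on the opposite strand from 226 to 220 bases before the start and 1 on the same strand from 83 to 77 bases before it. It was the 1 gene of the 8 with any match. Over all 32851 windows of this length, 5.42% held at least 1 match and 0.161% held 2 or more. The G and C content was 71.6% in the Hes5 window and 56.4% in the Dtx1 window. A match describes letters in a window and is not a measured binding site.

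Levels below are log2 of the processed signal relative to the 75th percentile of the same array, so a difference of 1 is a doubling, and levels of different probes cannot be set against each other. No probe of the 10 genes passed limma's test of knock-out against control after Benjamini-Hochberg adjustment over all tested probes (0 of 13, against 33 of 25507, or 0.129%, of all tested probes). At an unadjusted limma p under 0.05 there were 2 probes of 13, both of Dtx4, against 7.95% of all tested probes. Of the 13 probes 12 were lower, against 50.1% of all. By the brightest probe, 9 of the 10 genes were lower in knock-outs, against 51.8% of all genes tested, and with no scaling between arrays this count was 3, in a setting where the median of all genes stood at 0.17. The median difference of the 10 genes was -0.11, with a range from -0.39 to 0.052, and the median over all 17124 genes was -0.0060. The groups did not overlap for 2 of the 10 genes, Dtx4 and Dll1, both lower in knock-outs, against 7.21% of all genes in that direction, and 0 of the 10 genes lay wholly above, against 6.38%.

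**Figure D1:**
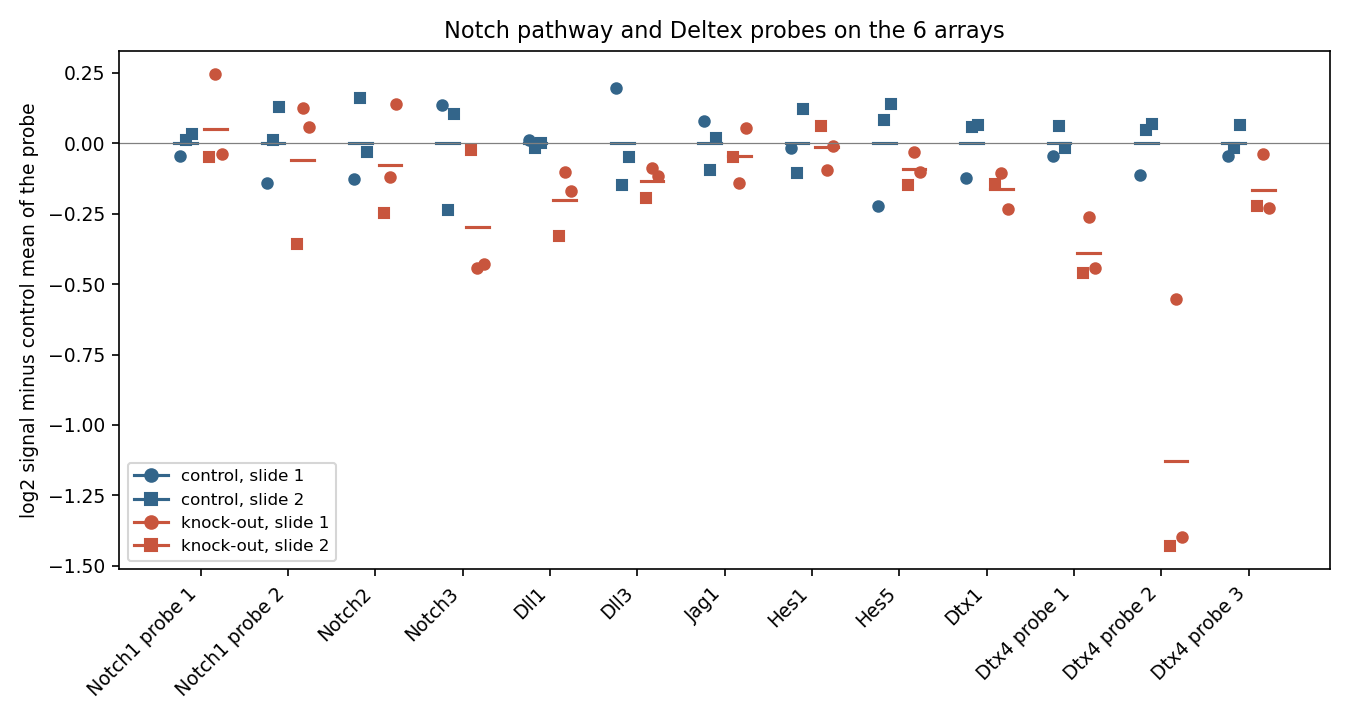
Log2 signal of the 13 tested probes on each of the 6 arrays, minus the control mean of the probe (y axis, log2), with controls in blue, knock-outs in red, circles for slide 1, squares for slide 2 and a line at each group mean. The Dtx4 probes 1 and 2 and the Dll1 probe have all 3 knock-out arrays below all 3 control arrays, and for the other 10 probes the groups overlap.

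The plot of signals by array shows how the groups lay on each probe. Notch1, the most widely studied of the mammalian receptors, was read by 2 probes whose differences were small beside their spread. On probe 1, printed in 10 spots, the level was -2.26, -2.20 and -2.18 in controls 15, 62 and 16 and -2.26, -1.97 and -2.25 in knock-outs 53, 48 and 54. The groups overlapped, and knock-out 48 stood above the other 5 arrays. The difference was 0.052 ± 0.10 (log2, SE, n = 3 per group, limma adjusted p = 0.949, 95% interval -0.19 to 0.30). The SE over the 10 spots within an array was between 0.0096 and 0.065, so most of the spread in knock-outs (SD 0.17) lay between arrays. On probe 2 the level was -3.34, -3.19 and -3.07 in controls and -3.56, -3.08 and -3.14 in knock-outs. Knock-out 53 was the lowest of the 6, the groups overlapped, and the difference was -0.058 ± 0.15 (limma adjusted p = 0.961).

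Notch2, a receptor of glia, progenitors and vessels among other cells, had 3 probes, and 1 of them was measured well enough to test. Its level was -0.72, -0.43 and -0.62 in controls 15, 62 and 16 and -0.84, -0.71 and -0.45 in knock-outs 53, 48 and 54. The groups overlapped, with control 62 and knock-out 54 highest. The difference was -0.077 ± 0.13 (log2, SE, n = 3 per group, limma adjusted p = 0.936, 95% interval -0.39 to 0.23), and it was 0.14 within slide 1 and -0.31 within slide 2. Probe 2 was well above background on 1 of 3 arrays in each group and probe 3 on 0 of 3 in each, so neither gave a fold change.

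Notch3, the receptor known from pericytes and vascular smooth muscle, had the widest interval of the 3 receptors' brightest probes. It stood at -0.79, -1.16 and -0.82 in controls and at -0.94, -1.36 and -1.35 in knock-outs 53, 48 and 54. Control 62 lay among the knock-outs, and knock-outs 48 and 54, both on slide 1, were lowest. The difference was -0.30 ± 0.16 (log2, SE, n = 3 per group, limma adjusted p = 0.717, 95% interval -0.67 to 0.077). Within slide 1 it was -0.57 and within slide 2 it was 0.042, so its sign was not the same on both slides. Of the mural cell markers, 8 of 11 tested were lower and 3 higher, with 0 at an unadjusted limma p under 0.05 and a mean deviation of -0.0098 to 0.068 in controls and -0.066 to 0.023 in knock-outs. Kcnj8, a potassium channel subunit of pericytes, differed by -0.22 ± 0.10 and Acta2, smooth muscle actin, by -0.11 ± 0.078. The part of such cells in the Notch3 values was not tested.

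Dll1, a Delta-type ligand that activates Notch on neighbouring cells, was lower on every knock-out array than on every control array, without passing the adjusted test. Its probe, printed in 10 spots, read -1.87, -1.89 and -1.88 in controls 15, 62 and 16 and -2.21, -1.98 and -2.05 in knock-outs 53, 48 and 54. The controls lay within 0.03 of each other and knock-out 48 was the knock-out nearest to them. The difference was -0.20 ± 0.086 (log2, SE, n = 3 per group, limma unadjusted p = 0.0553, adjusted p = 0.637, 95% interval -0.41 to 0.0061) and a signal 0.870 times that of controls. Within slide 1 it was -0.15 and within slide 2 it was -0.32. The SE over the 10 spots of an array lay between 0.027 and 0.084, which is wider than the SD between the controls (0.014), so the closeness of the controls is finer than the spots of 1 array can resolve.

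The other ligands differed less. Dll3, a divergent Delta-type protein that inhibits Notch within the cell that makes it, read -1.52, -1.86 and -1.76 in controls and -1.91, -1.80 and -1.83 in knock-outs. Control 15 was highest and control 62 lay among the knock-outs. The difference was -0.13 ± 0.11 (log2, SE, n = 3 per group, limma adjusted p = 0.837, 95% interval -0.39 to 0.12). It was -0.034 without control 15 and -0.21 without control 62. Jag1, a Jagged-type ligand of vessel and other cells, read -1.62, -1.79 and -1.68 in controls and -1.75, -1.84 and -1.65 in knock-outs on its tested probe. The groups overlapped over nearly their whole range, and the difference was -0.045 ± 0.090 (limma adjusted p = 0.949, 95% interval -0.26 to 0.17). A second Jag1 probe was well above background on 0 of 3 arrays in each group.

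The target genes Hes1 and Hes5, transcriptional repressors that Notch activates, showed no difference that passed the test. Hes1 read -3.05, -3.14 and -2.91 in controls 15, 62 and 16 and -2.97, -3.13 and -3.04 in knock-outs 53, 48 and 54. All 3 knock-outs lay within the range of the controls, and the difference was -0.015 ± 0.092 (log2, SE, n = 3 per group, limma adjusted p = 0.985, 95% interval -0.24 to 0.21). Hes5, whose promoter window with both matches is printed above, read 3.1, 3.41 and 3.47 in controls and 3.18, 3.30 and 3.22 in knock-outs. Here too the 3 knock-outs lay within the range of the controls, whose lowest sample was control 15. The difference was -0.093 ± 0.11 (limma adjusted p = 0.908, 95% interval -0.37 to 0.18), and it was 0.16 within slide 1 and -0.26 within slide 2. Without control 15 it was -0.21, without control 62 it was -0.051 and without control 16 it was -0.023. The intervals leave room for a change of up to about these sizes in either direction, so they do not show that the 2 genes were equal between groups.

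Astrocyte markers, given because Hes5 and several receptors are known from glia, stood lower in knock-outs. Of 14 tested, 12 were lower and 2 higher, against 51.8% of all genes lower. The 2 at an unadjusted limma p under 0.05, both lower, were S100b and Gfap, against 8.27% of all genes in either direction and 4.38% lower. S100b, a calcium-binding protein, differed by -0.30 ± 0.098 (limma adjusted p = 0.516). Gfap, the intermediate filament of astrocytes, differed by -0.58 ± 0.20 on its brightest probe (limma adjusted p = 0.525). Its other 2 probes differed by -0.12 and -0.14, and the mean over its probes by -0.28 (limma unadjusted p = 0.210). The mean deviation of the 14 lay between 0.048 and 0.091 in controls and between -0.16 and -0.020 in knock-outs, and all 14 were above background on every array. In tissue RNA of this kind fewer cells of a type and less RNA per cell cannot be told apart, and the part of astrocytes in the values above was not tested.

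Dtx1, a Deltex ubiquitin ligase whose gene is itself known as a Notch target, read 3.68, 3.86 and 3.87 in controls and 3.66, 3.70 and 3.57 in knock-outs. Knock-outs 53 and 54 lay below all controls and knock-out 48 lay just above control 15, so the groups overlapped by a narrow margin. The difference was -0.16 ± 0.088 (log2, SE, n = 3 per group, limma unadjusted p = 0.112, adjusted p = 0.725, 95% interval -0.37 to 0.049), a signal 10.6% lower. It was -0.047 within slide 1 and -0.21 within slide 2.

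Because Dtx1 and Cux2 lie on the same chromosome, the tested genes between them were described together with the 5 tested genes nearest to Dtx1 on its far side. The gene table places 37 genes between Dtx1 and Cux2, of which 20 were tested. Of these, 11 were lower and 9 higher, 0 reached an unadjusted limma p under 0.05 (8.27% of all genes did), and the median was -0.069. Of the 5 on the far side, 4 were lower and 1 higher. Rasal1, the neighbour of Dtx1 there, which codes for a GTPase-activating protein of Ras, read 2.10, 2.37 and 2.39 in controls and 2.01, 1.92 and 1.94 in knock-outs. Its groups did not overlap, and the difference was -0.33 ± 0.10 (log2, SE, n = 3 per group, limma unadjusted p = 0.0156, adjusted p = 0.496). Adding the 5 tested genes nearest to Cux2 on its other side gave 30 genes, 18 lower and 12 higher, with 3 at that p, all lower. Besides Rasal1 these were Myl2, a myosin light chain (-0.91 ± 0.19), and Hvcn1, a proton channel (-0.41 ± 0.13), which are named after their values were seen and whose limma adjusted p was 0.253 and 0.506. Myl2 entered the test only through the controls, being well above background on all 3 control arrays and 2 of 3 knock-out arrays. Its place among the 3 lower genes therefore supports nothing.

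**Figure D2:**
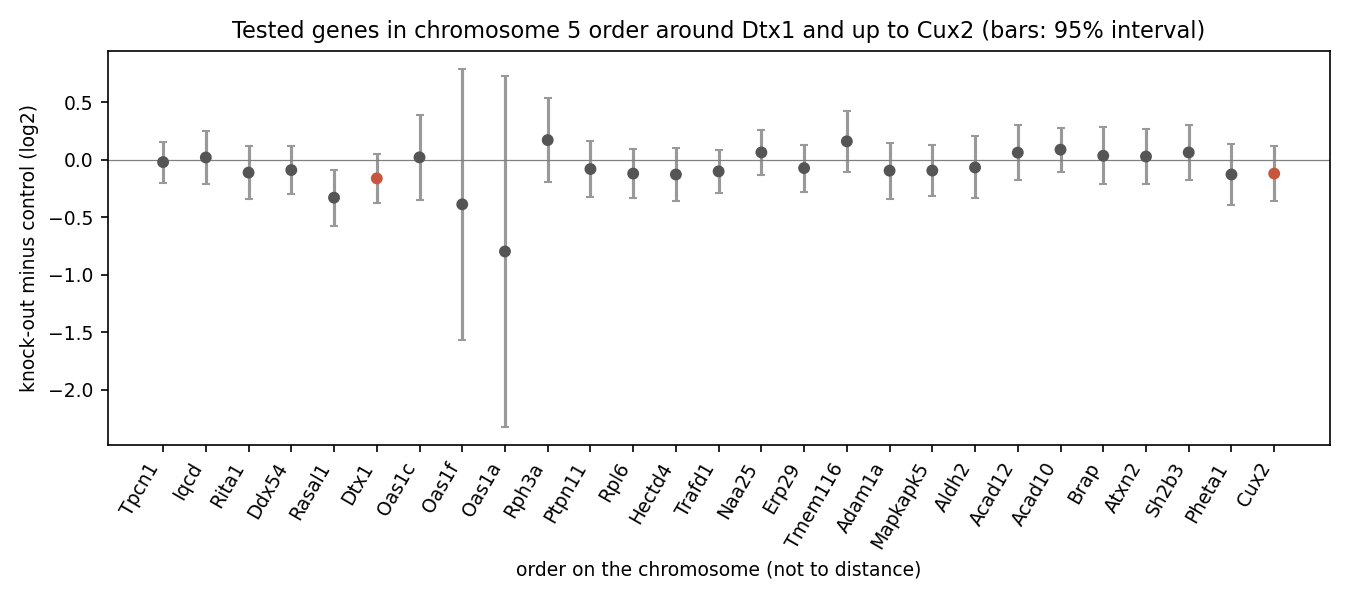
Knock-out minus control difference (y axis, log2, bars 95% limma intervals) of the tested genes from the far side of Dtx1 to Cux2, in chromosome order and not to distance (x axis), with Dtx1 and Cux2 in red. Most differences lie within 0.2 of 0, the interval of Rasal1 lies below 0, and Oas1f and Oas1a have wide intervals.

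The plot of chromosome order has Dtx1 (-0.16) next to Rasal1 (-0.33) on 1 side and, on the other, 20 genes whose intervals include 0. Dtx1 itself did not pass the test, and no difference between Dtx1 and its neighbours was tested.

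Dtx4, the Deltex family member used as a marker of upper cortical layers, had the lowest difference of the 10 genes by the brightest probe, while the difference of its probe 3 was smaller than those of Notch3 and Dll1. Its brightest probe read 2.75, 2.86 and 2.78 in controls 15, 62 and 16 and 2.34, 2.54 and 2.35 in knock-outs 53, 48 and 54. All 3 knock-outs lay below all 3 controls, and knock-out 48 was the nearest to them. The difference was -0.39 ± 0.087 (log2, SE, n = 3 per group, limma unadjusted p = 0.00347, adjusted p = 0.289, 95% interval -0.60 to -0.18), a signal 23.6% lower. It was -0.31 within slide 1 and -0.48 within slide 2.

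The second Dtx4 probe differed by more. It read -0.025, 0.14 and 0.16 in controls and -1.34, -0.46 and -1.31 in knock-outs. Again all knock-outs lay below all controls, and knock-out 48 stood well above the other 2 knock-outs. The difference was -1.13 ± 0.24 (log2, SE, n = 3 per group, limma unadjusted p = 0.00252, adjusted p = 0.260, 95% interval -1.70 to -0.56), a signal 54.2% lower, with -0.86 within slide 1 and -1.49 within slide 2. Without knock-out 48 the difference was -1.41 and the limma adjusted p was 0.0309, the 1 setting of 20 in which a probe of the 10 genes passed. Over those 20 settings its adjusted p ranged from 0.0309 to 0.731.

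The third Dtx4 probe had a smaller difference. It read -1.75, -1.72 and -1.64 in controls and -1.93, -1.74 and -1.94 in knock-outs. Knock-outs 53 and 54 were the lowest, and knock-out 48 lay between controls 15 and 62. The difference was -0.16 ± 0.087 (log2, SE, n = 3 per group, limma unadjusted p = 0.103, adjusted p = 0.718, 95% interval -0.37 to 0.044).

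The 3 probes of Dtx4 gave differences of unequal size. The distance from probe 1 to probe 2 differed between groups by -0.74, from probe 1 to probe 3 by 0.22 and from probe 2 to probe 3 by 0.96 (log2). In each of these 3 pairs the groups did not overlap, with a two-sided exact permutation p of 0.1, which is the smallest that 3 arrays against 3 can give, and 0.1 after adjustment over the 3 pairs. The sources used here do not say which parts of the transcript the probes read, so probe and transcript form cannot be told apart.

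**Figure D3:**
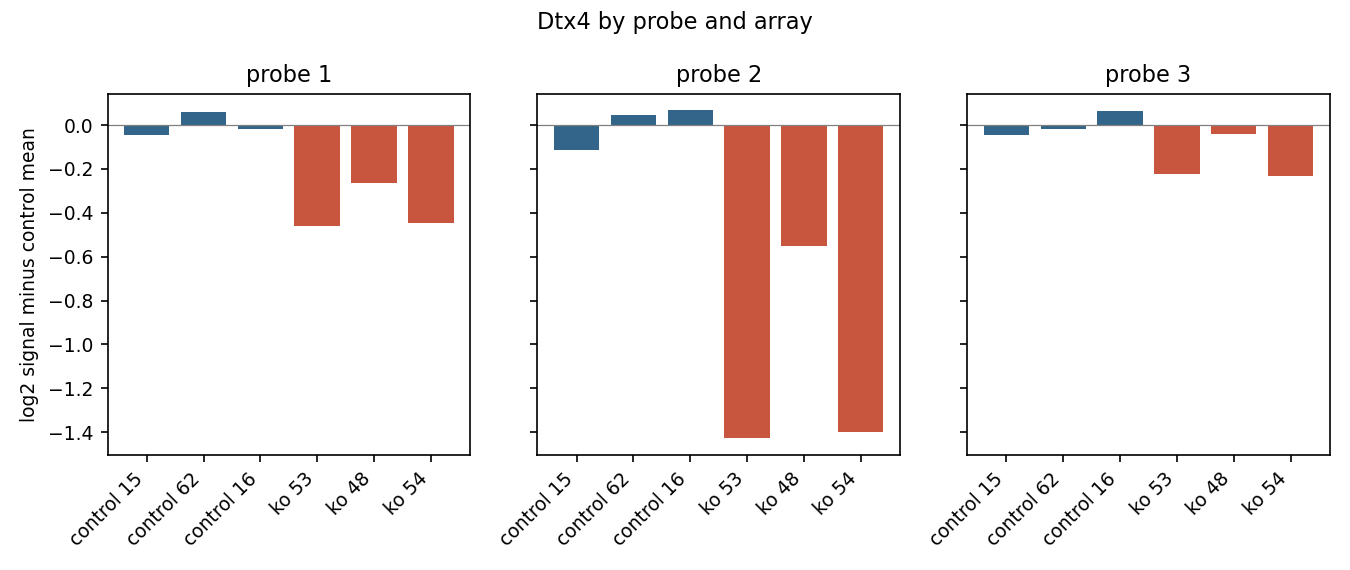
Log2 signal of the 3 Dtx4 probes on each array minus the control mean of the probe (y axis, log2, bars from 0; controls blue, knock-outs red). All 9 knock-out bars point down, those of probe 2 reach furthest, and on every probe knock-out 48 lies closest to the controls.

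The plot of Dtx4 by probe and array shows that knock-outs 53 and 54 were lower than knock-out 48 on all 3 probes. Dtx4 was set beside markers of the neurons in which it is known. Of 10 tested upper-layer markers, 8 were lower and 2 higher, against 51.8% of all genes lower. Cux2 itself is on this list and is 1 of the 8 (-0.12). The 2 at an unadjusted limma p under 0.05, both lower, were Pou3f2 and Rasgrf2, against 8.27% of all genes in either direction and 4.38% lower. Pou3f2, a POU-domain factor of these neurons, differed by -0.33 ± 0.13 (limma adjusted p = 0.607). Rasgrf2, a Ras guanine nucleotide exchange factor, differed by -0.21 ± 0.082 (limma adjusted p = 0.609). The mean deviation of the 10, Cux2 included, lay between -0.0057 and 0.080 in controls and between -0.096 and -0.0080 in knock-outs. All 10 were above background on every array. The mean deviation of these markers was -0.0080, -0.096 and -0.021 in knock-outs 53, 48 and 54, with knock-out 48 the lowest array. For Dtx4 knock-out 48 was the highest knock-out. Whether the order of the knock-outs in these markers bears on Dtx4 was not tested.

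Microglia and striatal markers were also lower in knock-outs, with 0 genes of either list past the adjusted limma test. Over all genes tested 51.8% were lower, and 4.38% were lower at an unadjusted limma p under 0.05. Of 12 microglia markers all 12 were lower, 10 of them at an unadjusted limma p under 0.05, with a mean deviation of 0.12 to 0.40 in controls and -0.30 to -0.18 in knock-outs. Of 12 striatal markers 11 were lower, 2 of them at that p, with -0.22 to 0.49 in controls and -0.34 to -0.13 in knock-outs. Control 16 was as low as the knock-outs for the striatal markers, so those groups overlapped, and for the microglia markers they did not. All markers of both lists were above background on every array. The part of microglia, striatal tissue or upper-layer neurons in the Dtx4 values was not tested.

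**Figure D4:**
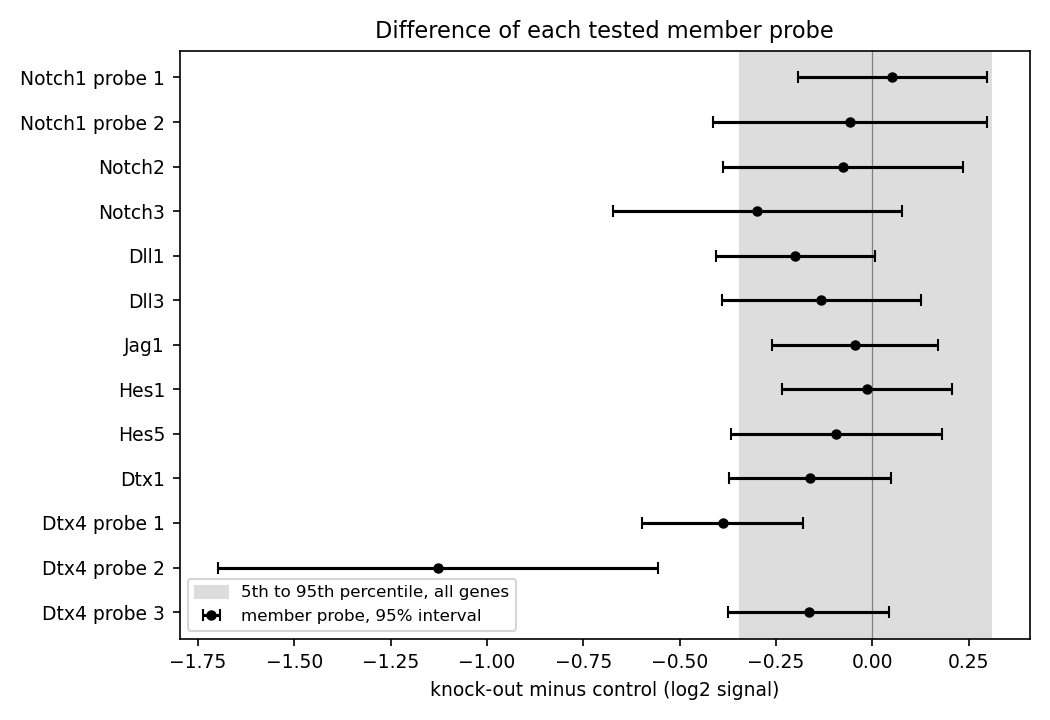
Knock-out minus control difference of each tested probe with its 95% limma interval (x axis, log2; y axis, probes in order of role), over a grey band from the 5th to the 95th percentile of all 17124 genes. The intervals of Dtx4 probes 1 and 2 exclude 0 and their centres lie outside the band, and the other 11 intervals include 0.

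The plot of differences sets the 13 probes against the grey band, which runs from -0.34 to 0.31. Only the first and second Dtx4 probes had a difference outside it. The median SE of the 10 genes was 0.098, against 0.11 for all genes tested, so they were measured about as precisely as other genes.

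The remaining genes of the pathway were described from lists of 78 genes, of which 77 are on the array and 73 were tested. Of these, 44 were lower and 29 higher, with a median of -0.029. None passed the adjusted limma test, and 10 (13.7%) reached an unadjusted limma p under 0.05, 8 lower and 2 higher, against 8.27% of all genes, 4.38% lower and 3.89% higher. This count depends on single arrays: it was 16 without control 15, 2 without control 16, 5 without knock-out 53 and 6 without knock-out 54, and 5 with no scaling between arrays. With probes above background on all arrays, which leaves out Neurog2, it was 9, and by the mean over a gene's tested probes it was 8.

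**Figure D5:**
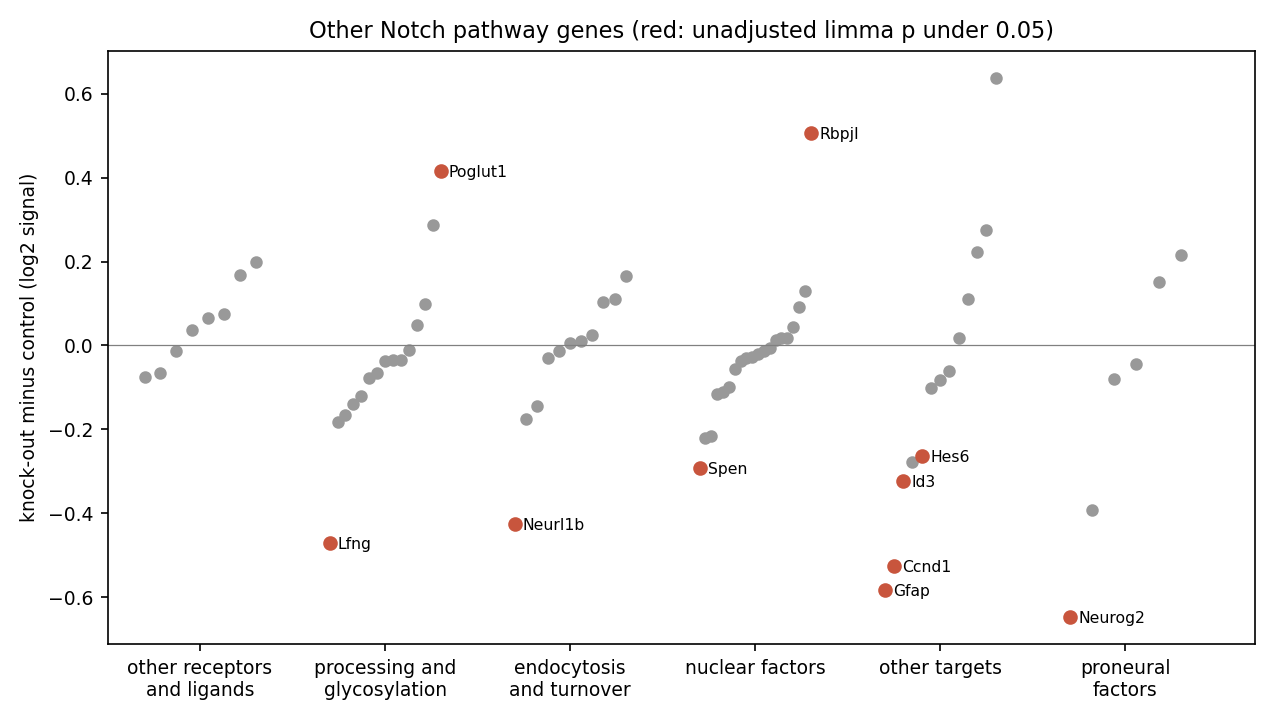
Knock-out minus control difference (y axis, log2) of 73 other Notch pathway genes by role (x axis), with genes at an unadjusted limma p under 0.05 in red and named. The 8 red genes below 0 include 4 from the list of other targets, which also holds relatives of the Hes family. Poglut1 and Rbpjl are the 2 above 0.

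As the plot by role shows, none of the 8 other receptors and ligands reached that p, and 3 were lower and 5 higher. Among 15 genes of receptor processing and glycosylation, which include the proteases that cut Notch, 11 were lower and 4 higher, with 1 in each direction at that p. Poglut1, which adds glucose to Notch repeats, read 0.24, 0.27 and 0.064 in controls and 0.59, 0.66 and 0.57 in knock-outs. Its groups did not overlap, and the difference was 0.42 ± 0.087 (log2, SE, n = 3 per group, limma unadjusted p = 0.00229, adjusted p = 0.255). Lfng, the Lunatic fringe glycosyltransferase that changes which ligands Notch answers to, differed by -0.47 ± 0.18 with overlapping groups. It and Ccnd1 below are named after their values were seen.

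Of 11 genes of endocytosis and turnover, 5 were lower and 6 higher. Neurl1b, a ubiquitin ligase of the Neuralized family that acts on ligands, was the 1 at an unadjusted limma p under 0.05. It read 3.18, 3.53 and 3.36 in controls and 3.02, 3.08 and 2.69 in knock-outs, which did not overlap, and differed by -0.43 ± 0.14 (limma adjusted p = 0.523). Of 20 nuclear factors, 13 were lower and 7 higher. Rbpj, the DNA-binding factor of the pathway, read -1.59, -1.76 and -1.92 in controls and -2.01, -1.77 and -2.14 in knock-outs. These overlapped, and the difference was -0.21 ± 0.13 (limma unadjusted p = 0.148, adjusted p = 0.774). Spen, a corepressor that works with Rbpj, differed by -0.29 ± 0.084 without overlap (limma adjusted p = 0.457), and Rbpjl, a relative of Rbpj, by 0.51 ± 0.21 with overlap (limma adjusted p = 0.618). Rbpjl stood at 0.30 without knock-out 54, and Rbpj at -0.13 without control 15 or knock-out 54.

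The list of other targets and relatives of the Hes family held 4 of the 8 lower genes. These were 4 of 13 tested, against 4.38% of all genes lower at an unadjusted limma p under 0.05. Of the 13, 8 were lower and 5 higher, and Hey1, Hey2, Heyl and Nrarp, given further below, were not at that p. Gfap, which is in the astrocyte list too, read 1.28, 0.999 and 1.57 in controls and 0.38, 0.96 and 0.76 in knock-outs on its brightest probe, which did not overlap, while its other 2 probes differed by -0.12 and -0.14. Id3, an inhibitor of basic helix-loop-helix factors, differed by -0.32 ± 0.11 (limma adjusted p = 0.547), with no overlap. Hes6, a Hes family member that opposes Hes1, differed by -0.26 ± 0.099 (limma adjusted p = 0.585), with no overlap, and by -0.11 on a second probe. By the mean over a gene's tested probes, Gfap differed by -0.28 (limma unadjusted p = 0.210) and Hes6 by -0.19 (limma unadjusted p = 0.135). The place of Gfap and Hes6 among the 4 therefore rests on the brightest probe. Ccnd1, the cell cycle protein cyclin D1, differed by -0.53 ± 0.21, with overlap. Of 6 proneural factors 4 were lower. Neurog2 entered the test only through the controls, being well above background on all 3 control arrays and 1 of 3 knock-out arrays, so its place among the 8 lower genes supports nothing. It read -4.74, -5.42 and -4.52 in controls and -5.66, -5.59 and -5.38 in knock-outs, which overlapped.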

How the data were processed

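Total RNA of 6 cortex samples was amplified and labelled with Cy3, 1 array per sample, per the labels' protocols. The deposited processed signal is an intensity that Agilent Feature Extraction 9.1.3.1 subtracted for background and detrended within the array, per the file headers. Mean and local background intensity and the spot flags come from the same software, per the file headers. The authors also deposited log2 values. Their columns share 1 median (6.76) and rank as the processed signal does, so scale was taken as log2 with equal distributions, and no further centring is stated.

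Of 45018 spots, 1639 control spots were left out, as were 120 outlier spot values over the 6 arrays, and spots of a probe were averaged (41174 probes). Each array's 75th percentile was subtracted from its log2 processed signal. A probe was tested where a whole group, all 3 arrays, had it well above background (25507 probes), a filter that uses the groups. Probes were named by accession (22951), symbol (6659) or synonym (3109) through gene records of the assembly GRCm38.p6, used for names and gene order, and 8455 kept the array name. A gene is given by its brightest tested probe. Differences were fitted with limma 3.58.1 (lmFit, eBayes) under R 4.3.3, with the package data.table (version 1.17.8) and Benjamini-Hochberg adjustment at 0.05, and figures used matplotlib 3.10.9 in Python 3.11.15. In simulated knock-out against control data of 25445 probes, 50 were changed by each of several folds. The share found was 0% for a fold of 1.25, 20% for 1.5, 88% for 2 and 90% for 4, beside 6 false calls. The number of arrays limits the precision.

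Marker and pathway lists and the 10 genes were chosen with earlier results of these data known. Named genes are the 10 genes with every probe, pathway genes at an unadjusted p under 0.05 (at most 6 per direction, lowest p first), Rbpj, Cux2, chromosome 5 genes from the 5th tested gene beyond Dtx1 to Cux2 at that p, and up to 2 genes of lowest p per marker list. Alternatives changed scaling, background correction (normexp, offset 50), the filter, the variance model, array weights, the slide block and the probe summary, used the deposited log2 values, or left out an array.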

Additional observations from a re-analysis of the deposited data

How the results depend on the processing

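The results were recomputed in 21 alternative settings, 6 of which leave out 1 array. No paired analysis was possible because the titles give each sample its own number and none is shared between groups. In the 20 settings that keep probes apart, Dtx4 probe 1 stayed lower (-0.48 to -0.21) and had an unadjusted limma p under 0.05 in 18. Dtx4 probe 2 stayed lower in these 20 (-1.49 to -0.86), at that p in 19, and Dll1 stayed lower (-0.32 to -0.026), at that p in 4. Poglut1, Spen, Neurl1b, Gfap, Id3, Hes6, Rbpjl and Rbpj kept their sign in these 20 and Neurog2 in the 19 that hold it. Lfng, Ccnd1, Myl2, Hvcn1, the Hey genes and Nrarp were not recomputed. The 20 settings include slide 1 alone, with control 15 as its only control, and slide 2 alone, with knock-out 53 as its only knock-out. A limma p there rests on no spread within that group. For the values below that moved, the cause was not tested in any setting.

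The count of probes called over the whole array was 33. It was 3 with probes above background on at least 1 array, 2 with no filter on dim probes and 15 with slide as a block. Leaving out 1 array gave 2 to 62: 2 without control 15 or control 16, 13 without knock-out 54 and 62 without knock-out 53. The share of these calls that were higher was 13 of 33, and 13 of 49 with median scaling, 12 of 25 with probes above background on all arrays and 19 of 41 with no scaling. Higher calls outnumbered lower ones without control 62 (19 of 29), without control 15 or control 16 (2 of 2 each) and with the looser filters (3 of 3 and 2 of 2). The count of called probes among the 10 genes was 0, and 0 to 1 with 1 array left out. The count of probes of the 10 genes at an unadjusted limma p under 0.05 was 2, and 1 with no scaling. Within slide 1, where control 15 is the only control, the differences were -0.57 for Notch3, -0.31 for Dtx4 probe 1 and -0.86 for Dtx4 probe 2. The 10 other pathway genes at an unadjusted limma p under 0.05 became 5 with no scaling, and 2 to 16 with 1 array left out. By the mean over a gene's tested probes they became 8. The 9 genes that were lower became 3 with no scaling.

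Signs turned in these cases. With no scaling, which moves the median of all genes to 0.17, the differences were 0.041 for Dll3, 0.013 for Dtx1, 0.0097 for Dtx4 probe 3, 0.16 for Hes1, 0.081 for Hes5, 0.13 for Jag1, 0.12 for Notch1 probe 2 and 0.098 for Notch2. With slide as a block Hes1 stood at 0.0090. Within slide 1 the values were 0.16 for Hes5, 0.23 for Notch1 probe 2 and 0.14 for Notch2, and within slide 2 they were 0.053 for Hes1, -0.072 for Notch1 probe 1 and 0.042 for Notch3. The mean over the probes of Notch1 was -0.0029. With 1 array left out, Hes1 ranged from -0.067 to 0.047, Jag1 from -0.095 to 0.0027, Notch1 probe 1 from -0.044 to 0.10, Notch1 probe 2 from -0.15 to 0.091 and Notch2 from -0.18 to 0.0093. The normexp fit used unflagged spots only, a choice made after seeing the data, since flagged local backgrounds drove its background mean to -521, -267 and -615 on control 16 and knock-outs 48 and 54.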

Other observations

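Beside Hes1 and Hes5, the direct Notch targets most often used as readouts are the Hey genes, which code for repressors related to Hes, and Nrarp, a feedback inhibitor of the pathway. They are given here although they fell outside the rule for named genes, after their values were seen. Hey1 differed between knock-out and control by -0.061 ± 0.078 (log2, SE), Hey2 by 0.22 ± 0.21 and Nrarp by 0.018 ± 0.085, each with overlapping groups and a limma adjusted p of 0.914, 0.864 and 0.980. Heyl, known from vascular smooth muscle, read -1.47, -1.51 and -1.57 in controls 15, 62 and 16 and -1.44, -1.43 and -0.85 in knock-outs 53, 48 and 54. Its groups did not overlap, but knock-outs 53 and 48 lay close to the controls and knock-out 54 stood apart, and the difference was 0.27 ± 0.17 (limma adjusted p = 0.774).

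Progenitor markers are given because Notch is best known in dividing and early neural cells. Of 12 listed, Ccnb1, Cdk1, Eomes and Top2a were not tested, so Mki67 alone stands for cell division. Of the 8 tested, 2 were lower and 6 higher, and 0 had an unadjusted limma p under 0.05. Their mean deviation was 0.29 in knock-out 54, which stood apart, and -0.081 and -0.078 in knock-outs 53 and 48, within the control range of -0.11 to 0.032. Mki67, a protein of dividing cells, differed by -0.30 ± 0.13 and Sox2, a factor of neural stem cells and glia, by 0.25 ± 0.15. Of 12 endothelial markers 3 were lower and 9 higher, with Cdh5, the cadherin of vessel walls, at 0.29 ± 0.085 (limma adjusted p = 0.458) and Esam, an adhesion protein of endothelial cells, at -0.22 ± 0.074 (limma adjusted p = 0.539). Of 12 oligodendrocyte lineage markers 6 were lower and 6 higher, with 0 at that p.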
